A study of Mus musculus with 8 samples.

Results

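The genes described here are Nr3c1, which encodes the glucocorticoid receptor, and 9 genes that glucocorticoids classically induce: Fkbp5, Tsc22d3, Zbtb16, Klf9, Errfi1, Ddit4, Mt1, Mt2 and Cebpd. They were taken as every non-control probe whose RefSeq accession belongs to 1 of these symbols, which gave 11 probes of 55681 on the array, 2 for Nr3c1 and 1 for each other gene. All 10 genes were among the 14209 named genes tested, and each was well above background on all 8 arrays. The samples were whole kidneys of mice labelled male and 12 weeks old, snap frozen after 5 days on standard chow (4 control samples) or with cinacalcet HCl (4 samples), a calcimimetic that activates the calcium-sensing receptor. The dose in the labels is 1 mg per g of body weight, and the fields used here name no strain. Total RNA of each sample was labelled with Cy3 and hybridised to its own array, and the 8 arrays lay on 1 slide. No source used here says that the samples are separate animals, and a p-value then reflects only how far these 4 samples of a group differ. Whole kidney mixes many cell types, so fewer cells of a type and less RNA per cell cannot be told apart.

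The glucocorticoid receptor is a nuclear receptor held in the cytoplasm by heat shock protein chaperones. Hormone binding moves it to the nucleus, where it binds palindromic DNA elements, raises the transcription of a set of feedback and metabolic genes and lowers that of many inflammatory genes. In the kidney, glucocorticoids act on tubular transport and metabolism, and the enzymes Hsd11b1 and Hsd11b2 regenerate and inactivate the hormone inside cells. Receptor RNA itself is known to be lowered by its own ligand in many tissues.

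Levels are given as log2 of the processed spot intensity after subtracting the array's own 75th percentile, and a fold change is cinacalcet over control from limma. The threshold was a Benjamini-Hochberg adjusted p of 0.05 over all genes tested, and no level of a gene is set against that of another gene. The 75th percentile ranged from 202.9 to 257.1 intensity units, 51.8% to 58.0% of spots were well above background, and the number of arrays limits the precision. The label male was contradicted by 3 libraries: control 4, cinacalcet 2 and cinacalcet 3 had Ddx3y, Eif2s3y, Uty and Kdm5d, all 4 of them Y-linked, at background, while the other 5 arrays (called Y-positive here) had 3 or 4 of these genes above it. On those 3 arrays Xist, the transcript of X inactivation in female cells, was at 0.95, 0.46 and 0.73, against -6.99 to -4.22 on the rest. The split falls unevenly, with 1 such array among the controls and 2 among the cinacalcet samples. Results are therefore also given from a fit with this split as a blocking term (the Y block) and from the 5 Y-positive arrays alone.

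Nr3c1 fell with cinacalcet, and 3 of its classic target genes, Fkbp5, Zbtb16 and Cebpd, rose. Of the 10 genes 4 thus passed the threshold, where 8.02% of all tested genes did (3.37% higher and 4.64% lower). The other 6 (Tsc22d3, Klf9, Errfi1, Ddit4, Mt1 and Mt2) did not pass. The control and cinacalcet arrays did not overlap for Fkbp5, Zbtb16 and Klf9, which lay higher on every cinacalcet array, or for Nr3c1, which lay lower. Over all tested genes 8.01% were free of overlap in the higher direction and 9.80% in the lower. The median log2 fold change of the 10 genes was 0.65, with 8 estimates above 0 and 2 below, against a median of -0.03 over all tested genes. With the Y block 7 of the 10 passed (6 higher and 1 lower), where 17.0% of all genes did (6.64% higher and 10.4% lower), and on the 5 Y-positive arrays 2 did, where 7.85% of all genes did. The count was 6 without control 4, where 23.6% of all genes were called, and 1 to 3 without any other single array, where 1.53% to 6.78% were.

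**Figure D1:**
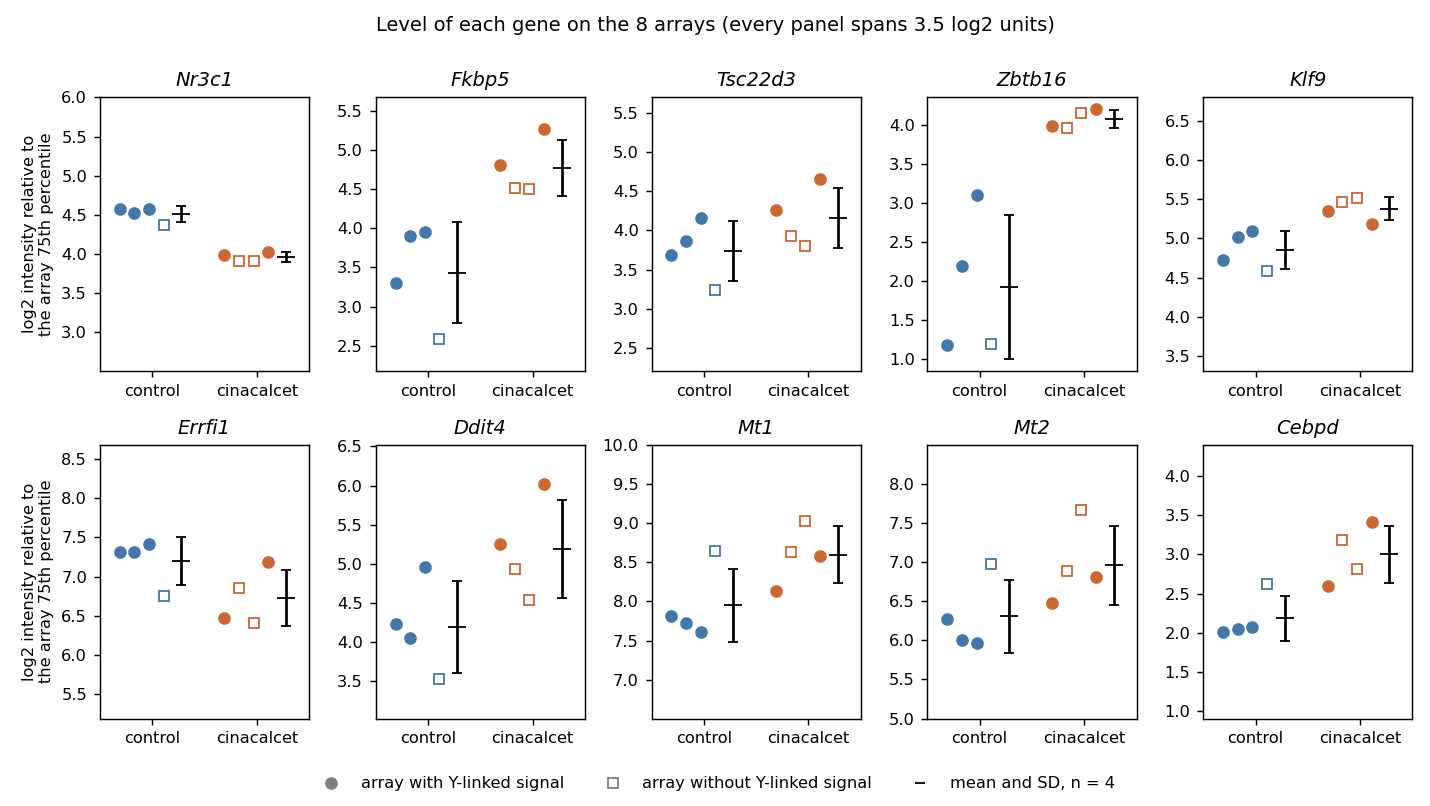
Level of each of the 10 genes on every array, as log2 intensity relative to the array's 75th percentile, for 4 control and 4 cinacalcet samples. Circles are arrays with Y-linked signal, open squares those without, and bars give the mean and SD. Nr3c1, Fkbp5, Zbtb16 and Klf9 show no overlap between the groups, while control 4 lies beside the cinacalcet arrays for Mt1 and Mt2.

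The receptor gene had the lowest adjusted p of the 10. On control arrays 1 to 4, Nr3c1 was at 4.58, 4.52, 4.57 and 4.37, and on cinacalcet arrays 1 to 4 at 3.99, 3.90, 3.92 and 4.03. The groups were separated by 0.34 log2 units, more than the whole range within either group (0.21 and 0.13). Nr3c1 fell 1.46-fold, from 4.51 ± 0.10 to 3.96 ± 0.06 (SD, n = 4 each), with a log2 fold change of -0.55 (SE 0.07, limma adjusted p = 0.0103). The other probe of the gene, dimmer, gave 1.22, 1.32, 1.48 and 1.58 on the controls and 0.94, 1.03, 0.86 and 0.75 with cinacalcet. The groups did not overlap on that probe either, though its gap was narrower than the range within each group, and its log2 fold change was -0.50 (SE 0.11, adjusted p = 0.0356 over all kept probes). The fall held with the Y block (-0.52, adjusted p = 0.00416) and on the 5 Y-positive arrays (-0.55, adjusted p = 0.0268). It also held with each array left out in turn (adjusted p of 0.00617 to 0.0393).

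Fkbp5 encodes FKBP51, a co-chaperone that binds the receptor complex and lowers its affinity for hormone, so that its induction forms a short feedback loop. Its levels were 3.30, 3.90, 3.96 and 2.58 on control arrays 1 to 4 and 4.81, 4.51, 4.50 and 5.27 on cinacalcet arrays 1 to 4. The lowest cinacalcet array lay 0.55 log2 units above the highest control, and control 4 was the lowest array of all. Fkbp5 rose 2.53-fold, from 3.43 ± 0.64 to 4.77 ± 0.36 (log2 fold change 1.34, SE 0.32, adjusted p = 0.0445). With the Y block the log2 fold change was 1.54 (adjusted p = 0.00568), and on the 5 Y-positive arrays 1.32 (adjusted p = 0.0464). On the other 3 arrays it was 1.93, from 1 control and 2 cinacalcet arrays and so untested. The call was lost without any array other than control 4 (adjusted p of 0.0714 to 0.108).

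Tsc22d3 encodes GILZ, a leucine zipper protein that carries much of the anti-inflammatory action of glucocorticoids. Its levels were 3.69, 3.86, 4.16 and 3.24 on the control arrays and 4.26, 3.92, 3.80 and 4.66 with cinacalcet. The groups overlapped, since control 3 lay above cinacalcet 2 and 3. The log2 fold change was 0.42 with an unadjusted 95% interval of -0.13 to 0.97 (adjusted p = 0.287), and so was not told apart from 0 at this number of arrays. The estimate was 0.56 on the 5 Y-positive arrays and 0.62 on the other 3. With the Y block it was 0.58 (SE 0.13) and passed (adjusted p = 0.0254).

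Among the transcription factor genes, Zbtb16 had the largest fold of the 10. Zbtb16 encodes PLZF, a zinc finger repressor. On control arrays 1 to 4 it was at 1.18, 2.19, 3.10 and 1.20, and on cinacalcet arrays 1 to 4 at 3.99, 3.96, 4.14 and 4.20. The control arrays spread over 1.92 log2 units and the cinacalcet arrays over 0.24, and the gap between the groups was 0.86. In deposited intensity units this is 464.9 to 1939 on the controls and 3715 to 4466 with cinacalcet. Zbtb16 rose 4.45-fold, from 1.92 ± 0.92 to 4.07 ± 0.12 (log2 fold change 2.15, SE 0.40, adjusted p = 0.0228). The Y block gave 2.26 (adjusted p = 0.0130). On the 5 Y-positive arrays the estimate was 1.93 and did not pass (adjusted p = 0.0894), and on the other 3 arrays it was 2.86. The call was also lost without control 1, control 2 or cinacalcet 2, 3 or 4 (adjusted p of 0.0550 to 0.0675).

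Klf9 encodes a Krüppel-like factor that is induced by glucocorticoids and follows the daily rhythm in several tissues. It was at 4.73, 5.02, 5.10 and 4.58 on the control arrays and at 5.35, 5.47, 5.51 and 5.18 on the cinacalcet arrays. All cinacalcet arrays lay above all controls, by a gap of 0.08. Its log2 fold change of 0.52 (SE 0.13, unadjusted 95% interval 0.22 to 0.83) just missed the threshold (adjusted p = 0.0522). With the Y block it passed (log2 fold change 0.53 and adjusted p = 0.0422), and on the 5 Y-positive arrays the estimate was 0.32 (adjusted p = 0.187). It passed as well without control 4 (adjusted p = 0.0418).

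Cebpd encodes C/EBP delta, a leucine zipper factor of acute phase and fat cell differentiation programmes. Controls 1 to 3 sat together at 2.01, 2.04 and 2.07, while control 4 was at 2.62. The cinacalcet arrays were at 2.60, 3.19, 2.82 and 3.41, so the groups overlapped only through control 4 and cinacalcet 1. Cebpd rose 1.77-fold, from 2.18 ± 0.29 to 3.00 ± 0.36 (log2 fold change 0.82, SE 0.21), at the edge of the threshold (adjusted p = 0.04999). It kept the call with the Y block (0.76, adjusted p = 0.0433), not on the 5 Y-positive arrays (0.97, adjusted p = 0.0700). Without any array other than control 4 or cinacalcet 1 the call was lost (adjusted p of 0.0951 to 0.135), as it was with quantile normalization (adjusted p = 0.0505).

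**Figure D2:**
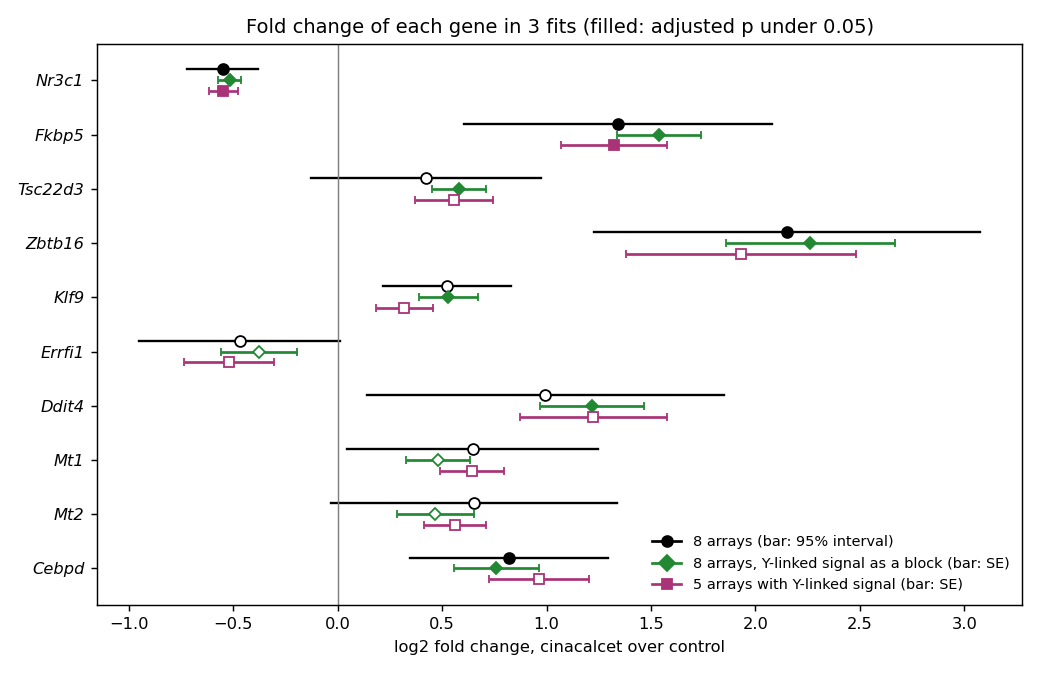
Log2 fold change, cinacalcet over control, of each gene in the fit to 8 arrays (circles, with the 95% interval), in that fit with the Y block (diamonds, with SE) and on the 5 Y-positive arrays (squares, with SE). Filled symbols passed an adjusted p of 0.05: 4, 7 and 2 of the 10 genes, with Nr3c1 and Fkbp5 filled in all.

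Errfi1 and Ddit4 encode brakes on growth signalling: Errfi1 makes MIG6, an inhibitor of the EGF receptor, and Ddit4 makes REDD1, which restrains mTORC1. For Errfi1 the controls were at 7.31, 7.31, 7.42 and 6.75 and the cinacalcet arrays at 6.47, 6.85, 6.41 and 7.18. Controls 1 to 3 thus lay above every cinacalcet array, while control 4 lay among them. The log2 fold change was -0.47 (unadjusted 95% interval -0.95 to 0.01, adjusted p = 0.188), opposite in sign to the 8 positive estimates of the set, and it did not pass with the block either (-0.38, adjusted p = 0.189).

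For Ddit4 the control arrays were at 4.23, 4.05, 4.95 and 3.53 and the cinacalcet arrays at 5.26, 4.93, 4.54 and 6.02. Both groups spread widely, over 1.42 and 1.47 log2 units, and overlapped at control 3. Its log2 fold change of 0.99 (SE 0.37, unadjusted 95% interval 0.14 to 1.85) did not pass (adjusted p = 0.131). It was 1.22 on the 5 Y-positive arrays and 1.20 on the other 3, and with the Y block it passed (1.22, adjusted p = 0.0192).

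Mt1 and Mt2 encode metallothioneins, small cysteine-rich proteins that bind zinc, copper and cadmium. Their genes are neighbours and are induced by metals through the factor MTF1 as well as by glucocorticoids. Mt1 was at 7.82, 7.72, 7.61 and 8.65 on the controls and at 8.14, 8.63, 9.03 and 8.58 with cinacalcet. Mt2 was at 6.27, 6.01, 5.96 and 6.97 on the controls and at 6.48, 6.88, 7.66 and 6.81 with cinacalcet. Both genes put the 8 arrays in the same order, with control 4 second to cinacalcet 3 at the top and controls 3, 2 and 1 at the bottom. The root mean square difference between their profiles, each centred on its mean over the 8 arrays, was 0.12 log2 units, the smallest of any pair of the 10 genes, the next being 0.25 for Nr3c1 and Errfi1. The probes belong to close paralogs and may share signal.

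Neither metallothionein gene passed the threshold. The log2 fold change was 0.65 for Mt1 (unadjusted 95% interval 0.05 to 1.25, adjusted p = 0.155) and 0.65 for Mt2 (-0.03 to 1.34, adjusted p = 0.198). On the 5 Y-positive arrays it was 0.64 and 0.56 (adjusted p of 0.0655 and 0.0782), and within the other 3 arrays it was 0.19 and 0.30. Without control 4 the estimate for Mt1 was 0.88 and passed (adjusted p = 0.0231), and that for Mt2 was 0.88 and did not (adjusted p = 0.0528).

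Since these neighbours moved together over the arrays, their promoters are shown (RefSeq, GRCm38.p6, 250 bases before to 50 after the annotated start, plus strand; Mt1 at chr8:94178839-94179138 and Mt2 at chr8:94172368-94172667). Capitals mark matches, on either strand, to a loose receptor palindrome (GNACA, any 3 bases, then TGTNC) and to the metal response element cores TGCACNC and TGCGCNC, none of which overlap here.
Mt1: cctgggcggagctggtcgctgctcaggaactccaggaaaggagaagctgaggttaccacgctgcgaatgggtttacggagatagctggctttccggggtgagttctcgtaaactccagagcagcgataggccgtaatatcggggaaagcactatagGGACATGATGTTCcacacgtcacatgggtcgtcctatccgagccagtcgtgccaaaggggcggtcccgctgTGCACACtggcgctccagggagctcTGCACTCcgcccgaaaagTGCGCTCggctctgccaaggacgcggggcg
Mt2: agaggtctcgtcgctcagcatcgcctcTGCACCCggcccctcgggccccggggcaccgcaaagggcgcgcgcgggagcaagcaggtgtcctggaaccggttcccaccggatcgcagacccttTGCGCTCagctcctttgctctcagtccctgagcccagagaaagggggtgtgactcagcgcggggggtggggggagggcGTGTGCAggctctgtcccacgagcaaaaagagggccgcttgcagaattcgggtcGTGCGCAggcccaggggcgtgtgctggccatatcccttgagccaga

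The Mt1 window held 1 match to the loose palindrome, GGACATGATGTTC, which 0.475% of 32851 promoter windows of this length also hold. It held 3 metal response cores and the Mt2 window 4, where 1.97% of all windows hold at least 3 and 0.518% at least 4. Of the 10 genes 7 had a promoter entry, 10 entries in all; Nr3c1, Zbtb16 and Cebpd were not matched. The strict palindrome (AGAACA, any 3 bases, then TGTTCT), found in 0.0091% of windows, was in none of the 10 entries, and the hexamer AGAACA was in 1 of the 3 entries of Tsc22d3 and no other, where 19.0% of windows hold it. Such matches describe letters in these short windows, and binding to them was not tested.

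Among other genes that glucocorticoids induce, several rose as well. Of 35 tested genes of that list 10 rose, 2 fell and 23 did not pass, where 3.37% of all genes rose and 4.64% fell. The list was chosen with earlier results of these data known, so these counts are not independent evidence. Folds were 1.50 to 4.00 among those that rose, and the list's median log2 fold change was 0.37. Per1, a clock gene with a strong receptor response, went from 3.99 ± 0.07 to 4.82 ± 0.14 (log2 fold change 0.83, adjusted p = 0.00801). Map3k6, a stress kinase gene, went from 0.43 ± 0.34 to 2.17 ± 0.28 (3.33-fold, adjusted p = 0.00801). Sgk1, a kinase of sodium transport, rose 2.33-fold (adjusted p = 0.0113), and Nfkbia, the inhibitor of NF-kappa-B, rose 1.59-fold (adjusted p = 0.0134). All 4 also passed with the Y block and on the 5 Y-positive arrays. The 2 that fell, named after their values were seen, were Bcl6, a transcriptional repressor gene, with a log2 fold change of -0.95, and Snai2, encoding the repressor Slug, with a change of -0.38. The loose palindrome was in the promoter windows of 3 of the 33 list genes with an entry, namely Sgk1 (GAACAGAATGTTC), Map3k6 (GCACAGGCTGTTC) and Txnip (GCACACCGTGTCC). The count of 12 called genes in this list was 17 without control 4, where 23.6% of all genes were called. It was 4 without control 2 (1.53% of all genes) and 6 without control 1 (2.25%) or cinacalcet 3 (1.96%). It was 7 without control 3 (1.72%) or cinacalcet 2 (2.06%), and 8 without cinacalcet 4 (3.75%).

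Genes of the receptor's own pathway (chaperones, coregulators and hormone-converting enzymes) gave 0 calls of 19 in limma, with 11 at an unadjusted p under 0.05 and a median log2 fold change of -0.31. Over all 14209 tested genes 3969 had an unadjusted limma p under 0.05. Hsd11b1, which regenerates active glucocorticoid, had a level of 3.74 ± 0.49 on control arrays and 2.88 ± 0.22 on cinacalcet arrays (adjusted p = 0.0619, and 0.0282 with the Y block). The coactivator gene Crebbp was at 5.43 ± 0.14 and 5.11 ± 0.08 (adjusted p = 0.0654, and 0.0424 with the Y block). Without control 4 the list had 9 calls, in a fit that called 23.6% of all genes, and without any other single array it had 0.

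Inflammatory genes that the receptor is known to repress were partly too dim to test, with 8 of 18 failing the background filter. Of the 10 tested, 2 fell, none rose and 8 did not pass, where 4.64% of all genes fell and 3.37% rose. Cxcl10, a chemokine gene, fell by 1.78 on the log2 scale (SE 0.21, adjusted p = 0.00801), and Ccl5, another chemokine gene, fell by 1.42 (SE 0.26, adjusted p = 0.0228). Both also passed with the Y block and on the 5 Y-positive arrays, while Ccl5 lost its call without any of 5 single arrays.

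In the metal and oxidant list, set beside the metallothioneins, 3 of 11 tested genes rose and 1 fell, where 3.37% of all genes rose and 4.64% fell. Nqo1, a quinone reductase gene of the NRF2 response, rose 1.78-fold (adjusted p = 0.0185), Srxn1 1.23-fold and Txnrd1 1.24-fold. Mtf1, the metal-responsive transcription factor gene, fell by 0.37 on the log2 scale (adjusted p = 0.0335) on its brighter probe, while its other probe gave 0.14 (adjusted p = 0.508 over all kept probes). Mt3, a metallothionein gene best known from brain and picked with its value in view, changed by -0.07 on the log2 scale (adjusted p = 0.627). The list had 4 calls, and 6 without control 4, where 23.6% of all genes were called. It had 1 without control 1 or cinacalcet 4, 2 without cinacalcet 1 and 0 without control 2, control 3, cinacalcet 2 or cinacalcet 3. Those other fits called 1.53% to 6.78% of all genes.

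Targets shared with the mineralocorticoid receptor and the core clock gave 1 call each, where 3.37% of all genes rose and 4.64% fell. With the Y block they gave 2 and 3 calls, where 17.0% of all genes passed. Sgk1, the kinase gene of sodium transport that rose 2.33-fold, was counted with the other glucocorticoid-induced genes and is in neither list. Scnn1a, the alpha subunit of the epithelial sodium channel, rose 1.59-fold (adjusted p = 0.0304) and was the only 1 of 9 tested genes of its list to pass, though it did not pass without any of 6 single arrays or on the 5 Y-positive arrays (adjusted p = 0.0645 on the latter). Of 14 tested clock genes other than Per1, Dbp, a clock output factor gene, fell 1.48-fold (adjusted p = 0.0228) and 13 did not pass. The median log2 fold change was 0.05 in the first list and -0.06 in the second. Dbp passed without 3 of the 8 arrays, left out singly, and on the 5 Y-positive arrays (adjusted p = 0.0492).

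**Figure D3:**
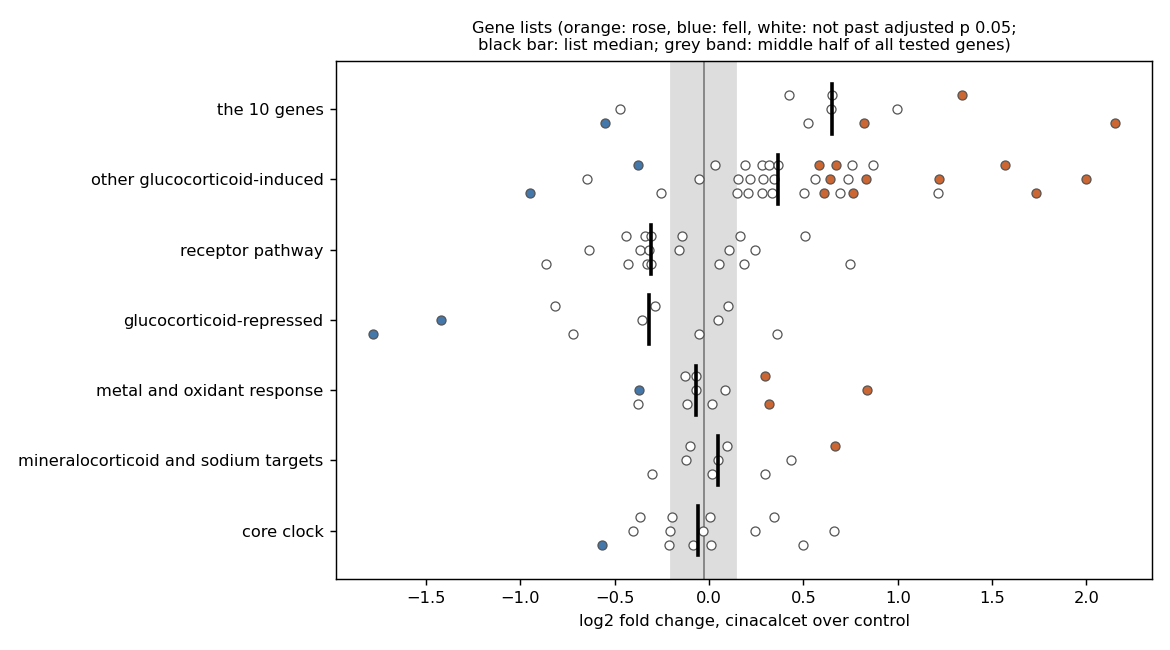
Log2 fold change, cinacalcet over control, of every tested gene in 7 lists, with orange points for genes that rose, blue for genes that fell and white for those that did not pass an adjusted p of 0.05. Black bars are list medians, and the grey band spans the central quartiles of all tested genes. The medians of the 10 genes (0.65) and of the other glucocorticoid-induced genes (0.37) lie to the right of the band. The 10 genes and the lists were chosen with earlier results of these data known.

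The genes whose centred profile over the 8 arrays lay nearest to each called member were also found. For Nr3c1 these were Ptgr2, Samd9l and Pik3c2g, with root mean square differences of 0.05 to 0.06 log2 units. For Fkbp5 they were Cdr2 (0.25), Ppp1r32 (0.30) and Fyb2 (0.31). Nearest to Zbtb16 were Hif3a (0.41), Hhipl1 (0.43) and Map3k6 (0.43), of which Hif3a, an inhibitory hypoxia factor gene, and Map3k6 are in the list of other induced genes. Cebpd was nearest to Clrn3 (0.11), Fetub (0.13) and Hr (0.13). Differences scale with how far a gene varies, so they compare candidates for 1 member and not members with each other. The centred profiles keep the difference between the groups, so genes near a called member tend to share its fold change. For Hif3a, Hhipl1 and Map3k6 the log2 fold changes were 2.00, 1.44 and 1.73. Of these Hhipl1 did not pass (limma adjusted p = 0.105). Its estimate ranged from 0.10 to 1.99 under the alternatives tried, 1 of 19 of which passed. Shared regulation was not tested.

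Some markers of other cells that a kidney sample can hold moved between the groups too. For comparison, 3.37% of all tested genes rose and 4.64% fell, and 3969 of 14209 had an unadjusted limma p under 0.05. All 11 kidney markers were above background on every array and 0 passed in limma (2 at an unadjusted p under 0.05), with a log2 summed level of 11.15 to 11.46 on controls and 10.43 to 11.27 with cinacalcet. The lowest sums, 10.43 and 10.56, were on cinacalcet 2 and 3, both without Y-linked signal. There Kap, 1 of the 11, was at 8.09 and 8.45, against 10.35 and 10.43 on cinacalcet 1 and 4. Control 4, also without Y-linked signal, had Kap at 10.17 and a sum of 11.15, with Kap at 10.42 to 10.74 on controls 1 to 3. Of the 11 estimates 7 were above 0 and 4 below, with a median log2 fold change of 0.05. Of 8 tested fat cell markers 1 passed: Ucp1, of brown fat, fell by 5.73 on the log2 scale (adjusted p = 0.0140). It was well above background on only 2 of the 4 cinacalcet arrays, so the size of this fall is uncertain, and it was -6.34 to -3.02 under the alternatives tried. The log2 of the summed level of the 9 fat markers ranged from 5.24 to 7.03 on controls and from 4.37 to 5.86 with cinacalcet. All 6 tested red cell genes fell, with a summed level of 10.88 to 11.14 on controls and 8.80 to 10.29 with cinacalcet. Of 10 tested immune markers 2 rose (S100a9 and S100a8, genes of neutrophils) and 3 fell (Itgax, Adgre1 and Csf1r, genes of macrophages and dendritic cells, with other Csf1r probes at -0.61 and -0.05), and the summed level was 5.93 to 6.27 and 5.74 to 6.16. Of 10 adrenal gland markers, 4 to 6 were well above background on each control array and 5 to 6 on each cinacalcet array. The steroid-making genes Cyp11b1 and Cyp11b2 were not well above background on any array. Of 5 tested adrenal markers 0 passed in limma (2 at an unadjusted p under 0.05), and all 5 estimates were above 0 (median log2 fold change 0.25). Hsd3b1, a steroid-making enzyme gene, had the lowest p of them (adjusted p = 0.0592, and 0.0459 with the Y block). It was well above background on 2 of 4 control arrays and on all 4 cinacalcet arrays, and its estimate of 1.67 on the log2 scale ranged from 0.41 to 2.04 under the alternatives tried, 5 of 19 of which passed. Without control 4 the adrenal list had 2 calls, in a fit that called 23.6% of all genes. The summed level of 10 adrenal markers was 0.02 to 0.40 on controls and 0.27 to 0.69 with cinacalcet. The part of these cells in the values above was not tested.

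Control 4 often lay at the edge of its group. It was the lowest control for 6 of the 10 genes and the highest for 3, and the lowest of all arrays for 4 of them. The difference of the drug effect between the Y-positive and the other arrays passed for none of the 10 genes and for 0 of 14209 genes in limma (0% of genes tested), in a fit where only 1 control array lacks the signal, with unadjusted p among the 10 genes of 0.0287 (Klf9) to 0.973 (Ddit4).

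**Figure D4:**
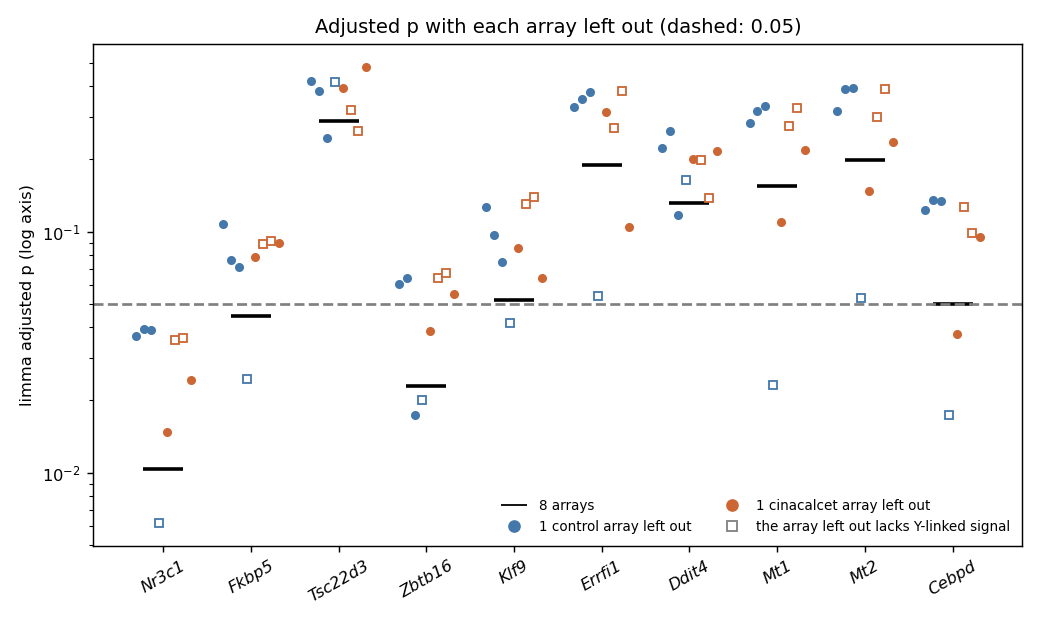
limma adjusted p (log axis) of each of the 10 genes on all 8 arrays (black bars) and with each array left out (blue, a control; orange, a cinacalcet array; open squares, an array without Y-linked signal). The dashed line is 0.05. Only Nr3c1 stays under it in all 8 fits, and leaving out control 4 brings Klf9 and Mt1 under it.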

How the data were processed

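The deposited files are Agilent Feature Extraction output with spot intensity on a linear scale, background-corrected by that software and not normalized between arrays, per the file headers. The headers name software version 11.0.1.1, whereas version 9.5 stands in the submitters' processing notes. Of 62976 spots per array 59305 were not controls, none of those was saturated, and 118 to 147 outlier spots were left out. Spots were averaged per probe as log2, each array was scaled by its 75th percentile, and a probe had to be well above background on 4 or more of the 8 arrays. Accessions were matched without version to RefSeq (GRCm38.p6), which named 27235 of 55681 probes. The brightest probe stood for a gene. The deposited annotation is on another build, so coordinates are given for promoters only.

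The comparison was a fit of all 8 arrays over 14209 genes with no covariate (lmFit and eBayes of limma 3.58.1, R 4.3.3), tested on simulated data. An array is Y-positive unless all 4 Y-linked genes are at background. All arrays shared 1 slide, so its rows were the only batch tried. Alternatives were the filter, scaling, background correction, probe choice, variance model, blocks and left-out arrays. The members, lists and alternatives were chosen with earlier results of these data known. By rule the genes named outside the 10 were up to 4 called genes per list with the lowest p (2 where none passed), the 3 nearest profiles of each called member and the sex-linked genes. Bcl6, Snai2, Txnip, Mt3, Cyp11b1, Cyp11b2 and S100a8 fall outside this rule and were chosen after their values were seen.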

Additional observations from a re-analysis of the deposited data

Results flagged for a closer look

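In a group of 4, a sample was singled out where its gap to the nearest other sample was more than 0.829 of the group's range, which chance gives in about 1 of 20 groups. Of 106 groups examined 12 had such a sample, 2 of 20 among the 10 glucocorticoid genes. Both of those were control 4: Errfi1 at 6.75, against 7.31 to 7.42 on the other controls, and Cebpd at 2.62, against 2.01 to 2.07. Control 4 was also apart for Ccl5 (1.55), S100a9 (0.37), Fyb2 (-2.17), Xist (0.95), Uty (-6.41), Eif2s3y (-6.60) and Ddx3y (-6.45). Cinacalcet 4 was apart for Crebbp (4.99), Hif3a (1.41) and Hhipl1 (-4.07).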

How the results depend on the processing

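No estimate of the 10 genes changed sign under any of the 20 alternatives tried. Nr3c1 passed in 19 of 20, Zbtb16 in 13, Fkbp5 in 10, Cebpd and Klf9 in 7, Tsc22d3, Ddit4 and Mt1 in 1, and Errfi1 and Mt2 in 0. The count of called members was 4, against 2 without the background filter, 7 with the Y block and 2 on Y-positive arrays only. Over all genes the count was 1139, against 367 without the filter, which tests 20657 genes, 1795 with all kept probes tested singly and 2417 with the Y block. Leaving out single arrays gave 1 to 6 members and 218 (without control 2) to 3356 (without control 4) genes. The replicate block left 0 members and 0 genes in limma, with 2869 genes at an unadjusted p under 0.05. No label says that replicate numbers pair the samples, and same-numbered arrays' deviations from their group means correlated at 0.34, -0.54, -0.36 and -0.56. In that fit Nr3c1 had an adjusted p of 0.0907. The median log2 fold change of all genes was -0.03, against -0.01 with quantile normalization and -0.04 when arrays were scaled to their detected probes' median. Of the other genes examined, Ddx3y and Kdm5d changed sign and passed nowhere. Signal over background did not limit the 10 genes, while 8 repressed genes were too dim to test.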
